A study of Mus musculus with 8 samples.

Results

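Gene expression in adipocytes made insulin resistant with tumour necrosis factor (TNF) was compared with that in adipocytes made insulin resistant with chronic insulin (CI). The comparison takes every array whose sample title names the TNF or the CI model, which is 3 TNF arrays and 2 CI arrays of the 8 arrays in the series, and every gene with a named probe set, which is 18194 genes. The cells were 3T3-L1 adipocytes, a mouse fibroblast line turned into fat cells in culture, and no genetic change is given for either model. TNF is an inflammatory cytokine, and the CI model exposes the cells to insulin for a long period. MnTBAP, an antioxidant that enters cells, was present in both models for the final 6 hours and is thus common to all the arrays compared. The remaining 3 arrays came from a dexamethasone (Dex) model with the same antioxidant and entered the fit only to help estimate the spread. Untreated cells were not part of the sample set, so "higher" or "lower" below is relative to the other model, and a gene lower in TNF can equally be a gene raised by chronic insulin. How long and at what dose the cells met insulin or TNF, and whether the arrays of a model came from separate cultures, is not given in the labels, so a p-value here reflects only how far these samples scatter, and that scatter may be technical. A cell line in culture also lacks the immune and vascular cells of fat tissue.

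TNF binds receptors at the cell surface and activates NF-kB, a family of transcription factors held in the cytoplasm by inhibitor proteins, several of which are themselves NF-kB targets. Interferons act through a different route, in which receptor-bound JAK kinases phosphorylate STAT proteins that join the interferon regulatory factor IRF9 and bind a DNA motif, the interferon-stimulated response element (ISRE). Insulin acts through PI3-kinase to bring the glucose transporter GLUT4 to the surface, to promote lipid synthesis and to restrain lipolysis, and through the ERK kinases to induce early growth-response genes. In fat cells TNF is known to oppose the adipocyte programme set by PPARgamma and C/EBPalpha.

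Values are the log2 of the deposited probe set intensities, in which a difference of 1 is a doubling. A gene was called when its limma adjusted p was below 0.05 and its log2 difference was over 0.5, and "rose", "fell", "higher" and "lower" are used of genes only in that sense. Each difference is followed by its standard error (SE). The arrays were alike in level, with median intensities between 124.7 and 130.97, and Pearson's r over all probe sets was 0.9971 between the CI arrays, 0.9958 to 0.9978 between TNF arrays and 0.9891 to 0.9911 between arrays of the 2 models. The difference between the 3′ and 5′ control probe sets of beta-actin, which grows as RNA degrades, was 0.66 and 0.54 in CI and 0.74, 0.71 and 0.83 in TNF, so it was larger in every TNF array. For Gapdh the same measure was 0.163 and 0.143 in CI and 0.0794, 0.12 and 0.138 in TNF, smaller in every TNF array, and for Pcx, at 1.73 and 2.04 in CI and 1.90, 2.10 and 2.53 in TNF, the models overlapped. The part of the beta-actin measure in the calls was not tested beyond a fit with it as a covariate, which called 1570 genes. Of the 1496 genes called without the covariate, 1267 kept their call in the same direction. The label for the tissue reads preadipocytes, whereas the source label reads adipose cells. The adipocyte hormone gene Adipoq stood at 14.38 and 14.35 in CI and 14.31, 14.32 and 14.31 in TNF, near the top of the scale (14.57), and the fatty acid carrier gene Fabp4 at 14.39 in CI and 14.40 in TNF on average, so adipocyte markers were abundant in both models.

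Of the 18194 genes, 1496 were called (8.22%), 545 of them higher in TNF (3%) and 951 lower (5.23%). The median difference over all genes was 0.03, with quartiles at -0.14 and 0.14. The split between the directions depended on the scaling. Quantile normalization gave 634 higher against 724 lower genes, and centring each array on its median gave 443 against 1180. The genes that differed most were those higher in TNF. Above a difference of 2 there were 19 higher and 7 lower genes, and above 3 there were 5 higher genes and no lower one. Calls were rarer among dim genes, with 1.6% called among the 4549 genes of lowest mean intensity and 14.3% among the 4549 of highest. In 1494 of the 1496 called genes the TNF and CI arrays did not overlap, which follows almost from the call itself. Where the text below says that the arrays of a called gene were apart, this describes its values and adds no support to the call.

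**Figure D1:**
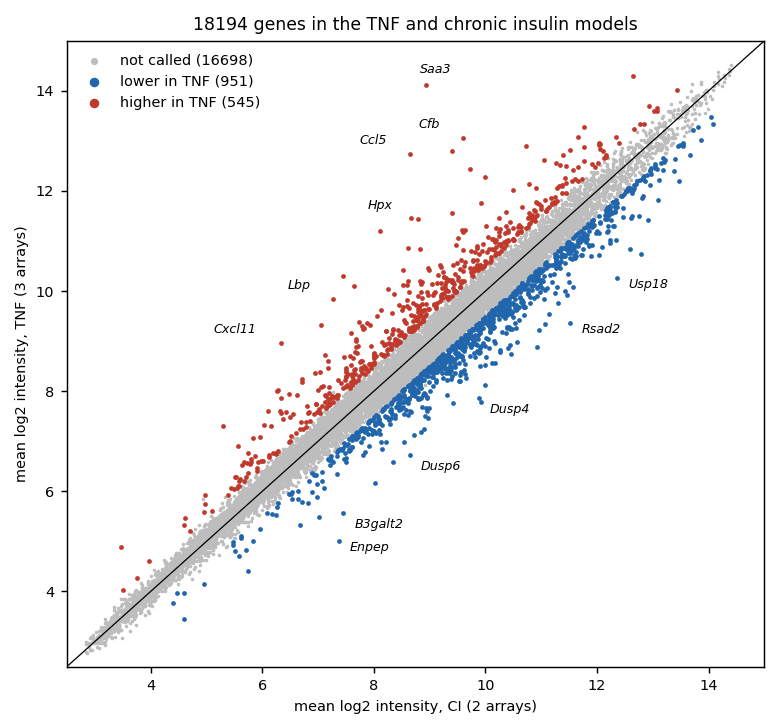
Mean log2 intensity of each of 18194 genes in the CI model (horizontal axis, 2 arrays) against the TNF model (vertical axis, 3 arrays), with genes higher in TNF in red, lower in blue and not called in grey, and the line of equal values in black. The red points reach farther from the line, up to Saa3 at a difference of 5.19, whereas the blue points are more numerous (951 against 545).

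The genes were read in 40 lists by function, chosen with earlier results of these data known. Each list is described by how many of its measured members were called and by its median difference. These are to be set against 8.22% called and a median of 0.03 for all genes. The 8.22% takes no account of how bright a list is, and bright genes were called more often. The highest medians were those of matrix proteinases and their inhibitors (0.38), lysosomal proteins (0.30), acute phase proteins (0.27), chemokines (0.25) and NF-kB components (0.24). The lowest were those of interferon-inducible GTPases (-0.73), interferon-stimulated antiviral genes (-0.60), adipocyte markers (-0.52), enzymes of branched-chain amino acid breakdown (-0.50) and citric acid cycle enzymes (-0.43).

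**Figure D2:**
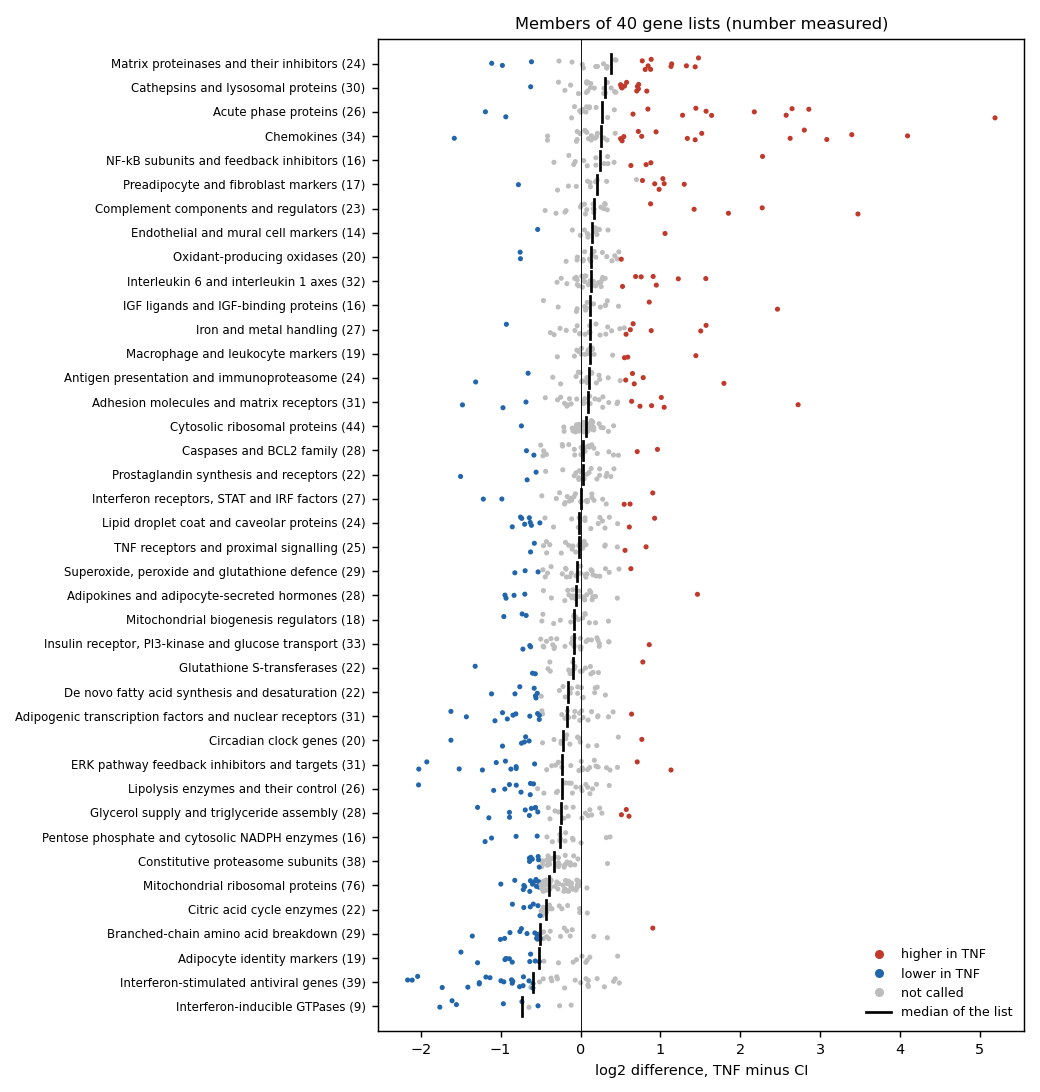
Log2 difference, TNF minus CI (horizontal axis), of every measured member of 40 gene lists, 1 list per line with its number of measured members, ordered by the median of the list (black bar). Red points are genes higher in TNF, blue points lower and grey points not called, and the medians run from -0.73 for interferon-inducible GTPases to 0.38 for matrix proteinases and their inhibitors.

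Tnfrsf1a, the main TNF receptor, measured 12.51 and 12.41 in CI and 12.44, 12.34 and 12.42 in TNF, and the models overlapped (-0.06 ± 0.07, limma adjusted p = 0.59). Tnfrsf1b, the second receptor, was higher in TNF by 0.56 ± 0.10 (limma adjusted p = 0.00177), a call lost without CI replicate 1 (0.46 to 0.65 over the fits with an array left out, limma adjusted p up to 0.0273). Of 16 measured NF-kB subunits and feedback inhibitors, 4 were higher and 0 lower. Nfkbie, which encodes the inhibitor IkB-epsilon, stood at 6.76 and 7.35 in CI and 10.35, 8.52 and 9.13 in TNF. Each TNF array exceeded both CI arrays, but TNF replicate 1 lay far above the other TNF arrays. The difference was 2.28 ± 0.39 (limma adjusted p = 0.0017). The non-canonical subunit gene Relb rose by 0.82 ± 0.18, the atypical regulator gene Nfkbiz by 0.88 ± 0.13 and Tnip1, whose product restrains NF-kB together with A20, by 0.63 ± 0.14. Without CI replicate 1 the list kept only 2 members called higher. The calls of Relb and Tnip1 were among those lost in such fits, with a highest limma adjusted p of 0.0595 and 0.0625 as arrays were left out in turn.

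Some genes of the NF-kB system were not called. Nfkbia, the gene of IkB-alpha, differed by 0.19 ± 0.15, Tnfaip3, the gene of A20, by 0.30 ± 0.16 and Rela, the main activating subunit, by 0.34 ± 0.12, and none was called (limma adjusted p = 0.382, 0.222 and 0.0684). Il6, a cytokine gene often used as a readout of TNF, measured 7.47 and 7.63 in CI and 8.21, 7.10 and 7.18 in TNF. TNF replicate 1 lay above the CI arrays and the other TNF arrays below them, and the mean difference was -0.05 ± 0.25. Tnfaip2, a TNF-induced gene, rose by 0.82 ± 0.15, whereas the signalling genes Tab3 and Mlkl fell by 0.63 and 0.58. Of the 25 genes of TNF receptors and their proximal signalling, 2 were higher and 2 lower, with a median of -0.02, and 4 were lower without CI replicate 1.

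Chemokines, the secreted proteins that attract leukocytes, were higher in TNF in 14 of 34 cases and lower in 1. The ligands of the receptor CXCR3, a trio of genes usually described as interferon-induced, moved in opposite directions. Cxcl11 measured 6.35 and 6.31 in CI and 9.12, 8.76 and 8.98 in TNF. Every TNF array lay far above both CI arrays, and the difference was 2.62 ± 0.13 (limma adjusted p = 3.88e-07), although its level in CI was below that of the median gene and the array gives no background measure. The other probe set of Cxcl11, dim at a mean of 4.17 over the 8 arrays, differed by 0.28 and was not called. Cxcl9 measured 7.87 and 7.73 in CI and 9.37, 9.15 and 9.18 in TNF and was higher in TNF by 1.43 ± 0.09 (limma adjusted p = 1.76e-06). Cxcl10, in contrast, measured 10.53 and 10.59 in CI and 9.94, 8.35 and 8.65 in TNF. Here both CI arrays lay above every TNF array and TNF replicate 1 lay nearest to them. The difference was -1.58 ± 0.35 (limma adjusted p = 0.00831), a call lost without CI replicate 2 (-2.06 to -1.26 over the fits with an array left out, limma adjusted p up to 0.0681).

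No chemokine outside that trio was lower. Ccl5 was higher by 4.09 ± 0.08, Ccl9 by 3.39 ± 0.11 and Ccl8 by 3.08 ± 0.11. Ccl11, or eotaxin, which attracts eosinophils, was higher by 1.34 ± 0.10, Ccl6 by 0.95 ± 0.08, Cxcl12, the ligand of CXCR4, by 0.77 ± 0.09, Ccl7 by 0.72 ± 0.18 and Cxcl1, a neutrophil attractant, by 0.54 ± 0.14. The call of Ccl7 was lost without CI replicate 1 (0.51 to 0.91 over the fits with an array left out, limma adjusted p up to 0.134), and that of Cxcl1 was lost without CI replicate 1 or 2 or TNF replicate 1 (0.37 to 0.63 over the fits with an array left out, limma adjusted p up to 0.112). Cxcl5, a neutrophil chemokine of larger change, was at 8.62 and 8.71 in CI and 11.97, 11.14 and 11.28 in TNF, and Ccl2, which attracts monocytes, at 10.48 and 10.52 in CI and 12.61, 11.62 and 11.81 in TNF. For both the models were fully apart and TNF replicate 1 was the highest array. Ccl11, Cxcl9, Ccl6, Cxcl12, Ccl7 and Cxcl1 are named to show the range of the list and were chosen after their values were seen. Mean list levels were 7.47 and 7.46 in the CI arrays and 8.29, 8.12 and 8.10 in the TNF arrays, so the groups did not overlap.

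Acute phase proteins are secreted defence and transport proteins, made mostly by liver but also by fat cells. Of 26 measured genes, 11 were higher in TNF and 2 lower. Hpx, encoding the haem carrier hemopexin, measured 8.76 and 8.83 in CI and 11.62, 11.30 and 11.39 in TNF, a difference of 2.65 ± 0.12 (limma adjusted p = 2.69e-07), which is 6.26 times as high. Lbp, whose product passes bacterial lipopolysaccharide to CD14, measured 7.25 and 7.27 in CI and 9.90, 9.85 and 9.76 in TNF, a difference of 2.57 ± 0.07 (limma adjusted p = 3.14e-09). In both genes the arrays of a model sat close together and the models were far apart. The other probe set of Lbp, at a mean of 7.04 over the 8 arrays, differed by 0.26 and was not called. Cd14 itself, the receptor that takes lipopolysaccharide from that protein, rose by 1.44 ± 0.13 (limma adjusted p = 2.35e-05). Hp, the gene of the haemoglobin scavenger haptoglobin, measured 12.63 and 12.67 in CI and 14.36, 14.23 and 14.28 in TNF and rose by 1.64 ± 0.07, close to the brightest values of the arrays, where differences can be compressed. Cp, the gene of the copper-carrying ferroxidase ceruloplasmin, rose by 1.57 ± 0.12, and 6 of its 7 other probe sets were called in the same direction. Against this trend Orm1 and Orm2, genes of the orosomucoid plasma proteins, were lower in TNF by -0.94 ± 0.09 and -1.19 ± 0.14, 2 genes chosen after their values were seen and so alike in sequence that their probe sets may share signal. The fibrinogen genes Fga, Fgb and Fgg and the C-reactive protein gene Crp lay below the median gene in CI, differed by 0.07 to 0.20 and were not called.

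**Figure D3:**
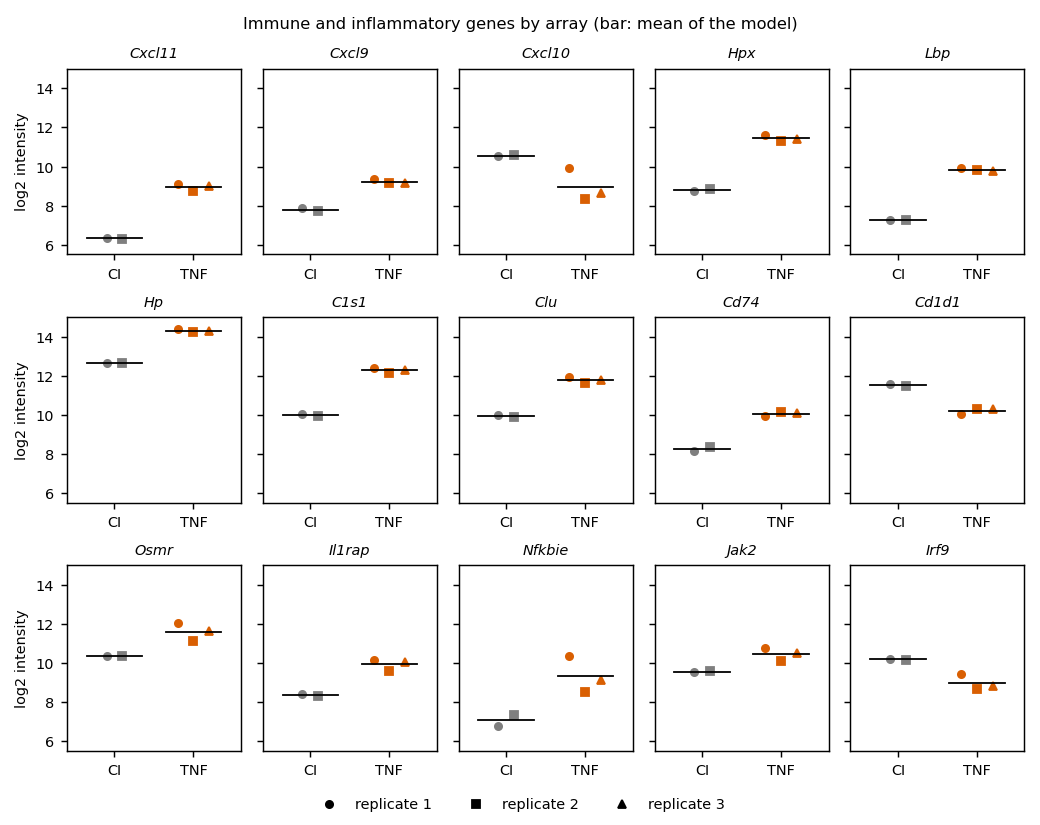
Log2 intensity (vertical axis) of 15 immune and inflammatory genes in each CI array (grey) and TNF array (orange), with the symbol giving the replicate and a bar at the mean of the model. Cxcl11 and Cxcl9 are higher in TNF and Cxcl10 lower, the secreted proteins Hpx, Lbp and C1s1 are far apart with little spread, and TNF replicate 1 stands above the other TNF arrays for Nfkbie and Cxcl10.

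Of 23 measured genes of the complement cascade and its regulators, 5 were higher and 0 lower. Cfb, encoding factor B of the alternative pathway, measured 9.58 and 9.60 in CI and 13.12, 13.02 and 13.05 in TNF, a difference of 3.47 ± 0.07 (limma adjusted p = 2.42e-10), or 11.1 times as high. C1s1 and C1ra encode the proteases that start the classical pathway. C1s1 measured 10.06 and 9.95 in CI and 12.40, 12.15 and 12.27 in TNF, a difference of 2.27 ± 0.11 (limma adjusted p = 2.72e-07), and C1ra rose by 1.42 ± 0.10 (limma adjusted p = 3.82e-06). Serping1, whose product inhibits those same proteases, rose by 0.88 ± 0.09, and Clu, encoding clusterin, which blocks the terminal complex, by 1.85 ± 0.09. All 3 other probe sets of Clu were called higher as well. The genes C1qa, C1qb and C1qc, whose protein forms the recognition part of the first component, were not called, differed by 0.05 to 0.17 and lay below the median gene in CI.

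Of 32 genes of the interleukin 6 and interleukin 1 axes, 7 were higher and 0 lower, with a median of 0.13. Osmr, the oncostatin M receptor, measured 10.37 and 10.36 in CI and 12.03, 11.12 and 11.61 in TNF, a difference of 1.22 ± 0.19 (limma adjusted p = 0.000938). Lifr, the receptor of leukaemia inhibitory factor, rose by 0.91 ± 0.13, and Il6st, the signalling chain gp130 that these receptors share, by 0.69 ± 0.15, the latter lost without CI replicate 2 (0.56 to 0.85 over the fits with an array left out, limma adjusted p up to 0.0598). Il1rap, the co-receptor of the interleukin 1 family, measured 8.42 and 8.31 in CI and 10.16, 9.60 and 10.05 in TNF, and its difference of 1.57 ± 0.14 (limma adjusted p = 2.17e-05) was the largest of the list. Every TNF array exceeded every CI array for each of these genes. Il33, an interleukin 1 family ligand, rose by 0.95 ± 0.12 from a level below the median gene, and the interleukin 13 receptor gene Il13ra1 by 0.76 ± 0.11. The receptor genes Il6ra and Cntfr differed by 0.05 ± 0.08 and -0.04 ± 0.08 and were not called. The ligand genes Osm, Lif and Il1b differed by 0.02, 0.12 and 0.01 and were not called. Jak2, the kinase used by many of these receptors, rose by 0.90 ± 0.14 (limma adjusted p = 0.000992). The calls of Lifr, Nfkbiz and Tnfrsf1b were lost when the median over the probe sets of the gene was used.

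Antigen presentation genes did not move as 1 group, with 5 of 24 higher and 2 lower. Cd74, the invariant chain that guides MHC class II molecules, measured 8.17 and 8.35 in CI and 9.93, 10.13 and 10.09 in TNF, a difference of 1.79 ± 0.09 (limma adjusted p = 5.84e-07). Cd1d1, which presents lipids to natural killer T cells, went the opposite way, at 11.55 and 11.45 in CI and 10.02, 10.27 and 10.27 in TNF, a difference of -1.31 ± 0.10 (limma adjusted p = 9.93e-06). In neither gene did the models overlap. On the class I route Psmb10, a catalytic subunit of the immunoproteasome, rose by 0.78 ± 0.09, the peptide trimming enzyme gene Erap1 by 0.67 ± 0.08 and Tapbpl, a peptide editor, by 0.65 ± 0.09. The heavy chain genes H2-K1 and H2-D1 and the light chain gene B2m differed by 0.13, 0.20 and 0.08 and were not called.

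Of 39 interferon-stimulated antiviral genes, 20 were lower and 0 higher, with a median of -0.60, and of 9 interferon-inducible GTPases, which attack the compartments of intracellular microbes, 6 were lower and 0 higher, with a median of -0.73. Rsad2, encoding the antiviral enzyme viperin, differed by -2.16 ± 0.21 and Usp18, which removes ISG15 from proteins, by -2.11 ± 0.30, the largest falls of the antiviral list. Eif2ak2, the gene of the RNA-sensing kinase PKR, measured 9.96 and 9.85 in CI and 8.67, 8.30 and 8.51 in TNF, a difference of -1.41 ± 0.11 (limma adjusted p = 1.33e-05). Irf9, the DNA-binding partner of the STAT proteins, measured 10.19 and 10.17 in CI and 9.44, 8.66 and 8.79 in TNF, a difference of -1.22 ± 0.19 (limma adjusted p = 0.00114). Both genes kept all TNF arrays below the CI arrays. Stat2, which joins Irf9 in the same complex, fell by 0.98 (limma adjusted p = 0.02), a call lost without CI replicate 1 or 2 or TNF replicate 2 or 3 (-1.27 to -0.73 over the fits with an array left out, limma adjusted p up to 0.105). The interferon regulators Irf1 and Irf7 overlapped between the models, differed by -0.06 ± 0.15 and -0.26 ± 0.15 and were not called. The receptor gene Ifnar2 rose by 0.55 ± 0.08, a call lost when each array was centred on its median. Socs2, of the same list, rose by 0.62 ± 0.16, a call lost without TNF replicate 1 or 3. Irf9 and Stat2 were the 2 lower genes among 27 interferon receptors, STAT and IRF factors. The 3 higher were Jak2, Socs2 and Ifnar2, and the median of the list was 0.004.

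Ifit1, which binds viral RNA, measured 12.75 and 12.82 in CI and 11.87, 9.94 and 10.43 in TNF, and Trim30a measured 11.06 and 11.07 in CI and 10.44, 8.63 and 8.92 in TNF. In both, TNF replicate 1 lay below the CI arrays but well above the other TNF arrays. The call of Ifit1 was lost without CI replicate 2 (-2.60 to -1.64 over the fits with an array left out, limma adjusted p up to 0.0574), and that of Trim30a was lost without CI replicate 1 or 2 (-2.29 to -1.38 over the fits with an array left out, limma adjusted p up to 0.0729). Over the list of antiviral genes the number lower fell from 20 to 12 without CI replicate 1, to 10 without CI replicate 2 and to 13 without TNF replicate 3, and it was 9 with the beta-actin covariate. The GTPases Irgm2, Igtp and Irgm1 fell by 1.61, 1.55 and 0.73, with SEs of 0.33, 0.21 and 0.14, and these calls held with every array left out in turn. Iigp1, the GTPase with the largest fall, measured 12.62 and 12.58 in CI and 11.88, 10.19 and 10.44 in TNF, and its call (-1.76 ± 0.43, limma adjusted p = 0.0131) was lost without CI replicate 1 or 2 or TNF replicate 3 (-2.28 to -1.44 over the fits with an array left out, limma adjusted p up to 0.081). The call of Gbp7 (-0.53 ± 0.17) was lost without CI replicate 1 or 2 or TNF replicate 2 or 3 or Dex replicate 2 (-0.68 to -0.39 over the fits with an array left out, limma adjusted p up to 0.179). Both were also lost with the beta-actin covariate. The genes of this family are so alike that probe sets may share signal. TNF replicate 1 was the highest TNF array in 37 of the 39 antiviral genes and in 9 of the 9 GTPases. The Dex arrays, which share no treatment with TNF or CI other than the antioxidant, averaged 9.25, 9.13 and 8.99 over the antiviral list, against 10.85 and 10.89 in CI and 10.62, 9.98 and 10.18 in TNF.

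**Figure D4:**
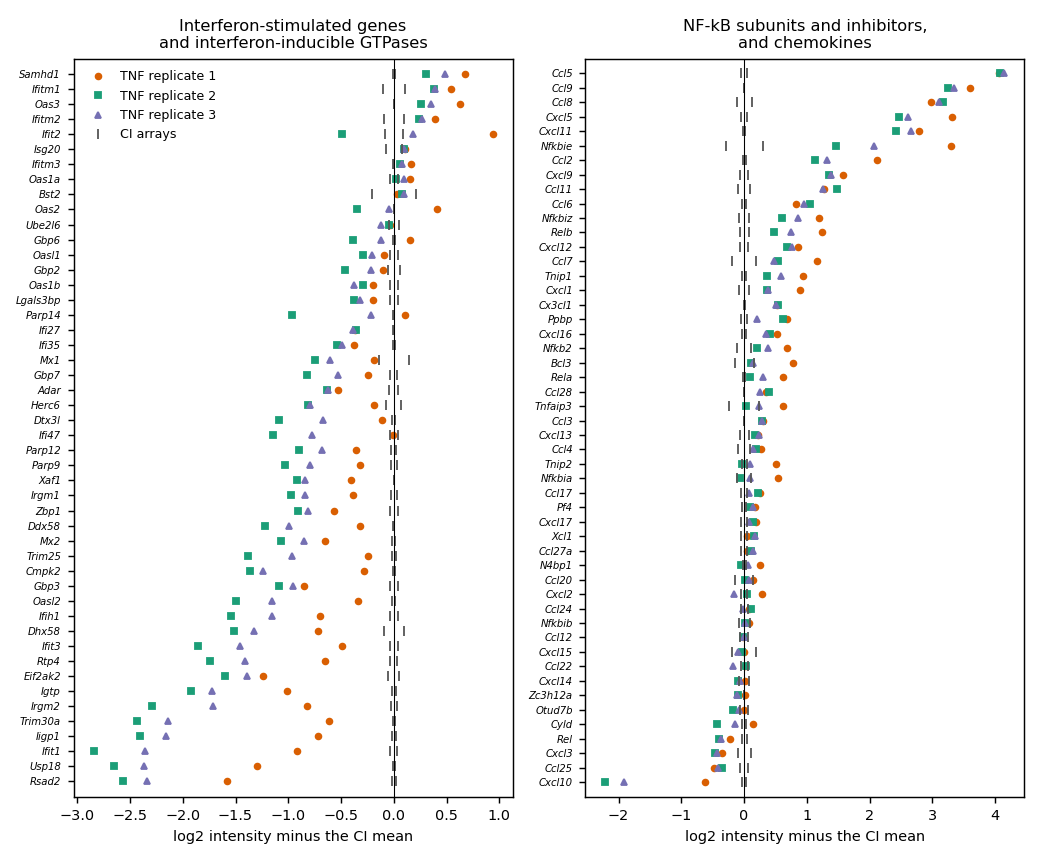
Log2 intensity of each array minus the mean of the CI arrays (horizontal axis) for 48 interferon-stimulated and GTPase genes (left) and 50 NF-kB and chemokine genes (right), ordered by the TNF mean. Coloured symbols are the 3 TNF arrays and grey ticks the 2 CI arrays. On the left TNF replicate 1 is nearest to the CI arrays for most genes with a negative difference, and on the right it is farthest from them for Nfkbie, Relb and Ccl2.

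The promoters of the interferon genes are shown because the core of the ISRE, searched on both strands with overlaps allowed, is frequent in them. The windows were those of RefSeq on the mouse build GRCm38.p6, from 250 bases before to 50 after the start of each gene. Of the 19 antiviral and GTPase genes lower in TNF that had a window, 12 held the motif (63.2%), and of the 16 that were not called, 6 did (37.5%). Among all measured genes with a window the share was 3.63%, and among all promoter windows 3.44%. The stretches below run 5′ to 3′ on the strand of the gene, lie before the start and carry the motif in capitals. Such a match is a description of the letters and not evidence of binding. The first pair belongs to the antiviral genes Ifit1 and Ifit3, which hold the motif in 2 separate copies.
Ifit1, chr19:34640765-34640833, + strand: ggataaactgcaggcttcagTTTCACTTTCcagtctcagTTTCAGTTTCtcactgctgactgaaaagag
Ifit3, chr19:34583353-34583436, + strand: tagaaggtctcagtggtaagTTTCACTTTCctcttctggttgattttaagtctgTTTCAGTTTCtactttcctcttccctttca
The GTPase genes Igtp and Irgm2 hold near-identical stretches. Irgm1 and Gbp3 hold overlapping copies. In Ifit1, Ifit3 and Gbp3 the motif is read on the opposite strand.
Igtp, chr11:58199502-58199551, + strand: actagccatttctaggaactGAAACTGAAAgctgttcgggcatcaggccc
Irgm2, chr11:58214893-58214942, + strand: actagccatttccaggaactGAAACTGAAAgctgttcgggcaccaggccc
Irgm1, chr11:48871421-48871470, - strand: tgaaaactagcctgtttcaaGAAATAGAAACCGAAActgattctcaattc
Gbp3, chr3:142559979-142560034, + strand: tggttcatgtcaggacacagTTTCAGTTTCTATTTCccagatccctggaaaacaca
The NF-kB motif was again searched on both strands. Of the 20 chemokine, acute phase, complement and NF-kB genes higher in TNF with a window, 5 held it (25%), and of the 52 not called, 13 did (25%), the same share, while 4.2% of all measured genes held it. The chemokine genes Cxcl1 and Cxcl9 and the inhibitor gene Tnip1 are shown as examples.
Cxcl1, chr5:90891136-90891203, + strand: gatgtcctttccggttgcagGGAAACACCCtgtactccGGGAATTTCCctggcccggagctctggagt
Cxcl9, chr5:92328180-92328229, - strand: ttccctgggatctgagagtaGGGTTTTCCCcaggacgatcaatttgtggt
Tnip1, chr11:54962968-54963017, - strand: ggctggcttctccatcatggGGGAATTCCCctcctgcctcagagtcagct

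Of 31 measured genes that ERK signalling induces or that limit it, 10 were lower and 2 higher, with a median of -0.23. Dusp4, encoding a nuclear phosphatase of ERK, measured 9.86 and 9.90 in CI and 7.96, 7.92 and 7.68 in TNF, a difference of -2.02 ± 0.13 (limma adjusted p = 2.94e-06). Dusp6, the cytoplasmic phosphatase of the same kinase, measured 8.66 and 8.63 in CI and 7.16, 6.56 and 6.44 in TNF, a difference of -1.92 ± 0.17 (limma adjusted p = 2.19e-05). Every TNF array was below every CI array in both. Spry4, a Sprouty inhibitor of receptor tyrosine kinase signalling, fell by 1.23 and Errfi1, an inhibitor of the EGF receptor, by 1.05, with SEs of 0.18 and 0.22. The early response factor gene Egr1 measured 10.47 and 10.41 in CI and 10.26, 8.13 and 8.38 in TNF. TNF replicate 1 was almost at the CI level, and the call (-1.52 ± 0.46, limma adjusted p = 0.0366) was lost without CI replicate 1 or 2 or TNF replicate 2 or 3 or Dex replicate 2 (-2.19 to -1.12 over the fits with an array left out, limma adjusted p up to 0.149). Without CI replicate 2 only 6 members were lower. Ier3, an early gene that NF-kB also induces, rose by 1.13 ± 0.17.

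Growth factor genes outside that group also differed. Igfbp3, whose product binds insulin-like growth factors in the medium, measured 7.55 and 7.74 in CI and 10.22, 9.97 and 10.13 in TNF, a difference of 2.46 ± 0.11 (limma adjusted p = 2.69e-07). The receptor gene Igf1r rose by 0.86 ± 0.08, though not with the median over its probe sets, while the insulin receptor gene Insr differed by 0.23 ± 0.09 and was not called. Slc2a4, the gene of the insulin-responsive glucose transporter GLUT4, measured 11.44 and 11.49 in CI and 10.73, 10.90 and 10.90 in TNF, a difference of -0.63 ± 0.08 (limma adjusted p = 0.000278), 1 of 3 genes lower among 33 of insulin signalling and glucose transport, with 1 higher. Of 16 IGF ligand and binding protein genes 2 were higher and 0 lower. Hmga2, a chromatin protein of proliferating and undifferentiated cells, measured 8.72 and 8.52 in CI and 11.02, 10.70 and 10.85 in TNF, a difference of 2.24 ± 0.14 (limma adjusted p = 1.73e-06), and 2 of its 3 other probe sets were called higher. No TNF array overlapped a CI array for either Igfbp3 or Hmga2.

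Enzymes that cut the extracellular matrix and their inhibitors had the highest median of all lists (0.38), with 10 of 24 genes higher and 3 lower. Mmp3, or stromelysin, measured 6.75 and 6.67 in CI and 8.28, 8.14 and 8.14 in TNF and rose by 1.48 ± 0.08 (limma adjusted p = 6.18e-07) from a level below the median gene. Mmp11 measured 9.14 and 9.24 in CI and 10.68, 10.39 and 10.48 in TNF and rose by 1.33 ± 0.11 (limma adjusted p = 1.28e-05). The models were apart for both. Mmp23 rose by 1.14 ± 0.11 and the gelatinase gene Mmp9 by 1.13 ± 0.10, whereas Adamts9, which cuts proteoglycans, fell by 1.11, a fall not seen in the median over its probe sets. Among 31 adhesion molecules and matrix receptors 6 were higher and 3 lower. Vcam1, which binds leukocytes, rose by 2.72 ± 0.12. Alcam, a cell adhesion molecule, measured 9.94 and 10.04 in CI and 8.44, 8.47 and 8.64 in TNF, a difference of -1.48 ± 0.09 (limma adjusted p = 1.3e-06), and 3 of its 4 other probe sets were called lower. The integrin chains divided, with Itgav up by 1.01 ± 0.12 and the laminin-binding chain Itga6 down at -0.97 ± 0.07, and the collagen receptor gene Ddr2 rose by 0.89 ± 0.11. The call of Itgav was lost with the median over its probe sets.

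Markers of other cells were read beside these groups. Of 17 preadipocyte and fibroblast markers, 6 were higher and 1 lower, with a median of 0.21, and their mean level was 10.60 and 10.56 in CI and 11.04, 10.88 and 10.97 in TNF. Ccn5, a secreted matricellular protein, rose by 1.03 ± 0.13, while the proteoglycan gene Lum fell by 0.78 and the progenitor receptor gene Pdgfra differed by 0.70 ± 0.25 without being called (limma adjusted p = 0.0665). Cd44, also in the list of adhesion molecules, rose by 1.05 ± 0.11. The markers Dlk1, Col1a1, Col3a1 and Thy1 differed by 0.12, -0.15, -0.05 and -0.29 and were not called. Over the whole list the differences ran from -0.78 to 1.30. In such bulk samples a larger number of undifferentiated cells and more RNA of these genes per cell cannot be told apart. Of 19 macrophage and leukocyte markers 3 were higher (Cd14, Lyz1 and Lyz2) and 0 lower, and mean levels were 7.10 and 7.09 in CI and 7.28, 7.34 and 7.24 in TNF. Ptprc, Adgre1 and Itgam, which define leukocytes and macrophages, lay below the median gene in both models and differed by 0.06, 0.01 and -0.05. Lyz1 and Lyz2 are near copies and may share signal. Of 14 endothelial and mural markers, 11 lay below the median gene in CI, Acta2 rose by 1.06 ± 0.15 and Myh11 fell by 0.54, a call lost without CI replicate 2 or TNF replicate 2 (-0.64 to -0.44 over the fits with an array left out, limma adjusted p up to 0.0724), and their mean level was 6.88 and 6.89 in CI and 7.06, 7.02 and 7.02 in TNF. The calls of Acta2 and Myh11 were lost with the median over the probe sets. The part of these markers in the chemokine, matrix and adhesion results was not tested.

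Adipocyte markers were lower in TNF as far as they were called, with 10 of 19 lower and 0 higher and a median of -0.52. Mean list levels were 12.32 and 12.27 in CI and 11.81, 11.86 and 11.80 in TNF. The Dex arrays averaged 11.80, 11.85 and 11.83, near the TNF arrays. Car3, a carbonic anhydrase among the most abundant proteins of mature fat cells, measured 13.05 and 12.79 in CI and 11.61, 11.31 and 11.35 in TNF, a difference of -1.5 ± 0.18 (limma adjusted p = 0.000181). Lep, the leptin gene, measured 7.17 and 6.26 in CI and 5.83, 5.81 and 5.69 in TNF. The CI arrays differed from each other by more than any pair of TNF arrays, and the difference of -0.93 ± 0.19 (limma adjusted p = 0.00521) was lost without CI replicate 1 (-1.39 to -0.48 over the fits with an array left out, limma adjusted p up to 0.0228). Among other secreted factors of fat cells Nrg4 fell by 0.83 and C1qtnf12, which encodes adipolin, by 0.70, while Grem1, an antagonist of bone morphogenetic proteins, rose by 1.46 ± 0.11 (limma adjusted p = 9.19e-06) from a level below the median gene. Of 28 adipokine genes 1 was higher and 4 lower. The call of C1qtnf12 was lost with the median over its probe sets.

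Among 31 transcription factors of the adipocyte programme, 11 were lower and 1 higher. Ebf2, a factor of adipocyte precursors and brown fat, fell by 1.07 and Rxrg, a partner of the nuclear receptors, by 0.85, with limma adjusted p-values of 1.79e-05 and 7.04e-05. Ebf1, related to Ebf2, fell by 0.92, a call lost without CI replicate 1 or 2 or TNF replicate 2 or 3 (-1.18 to -0.73 over the fits with an array left out, limma adjusted p up to 0.133). The master regulator Pparg measured 13.00 and 12.94 in CI and 12.58, 12.38 and 12.40 in TNF. Its difference of -0.52 ± 0.08 lay just past the limit of 0.5, and the call (limma adjusted p = 0.00134) was lost without CI replicate 1 or TNF replicate 2 or 3 (-0.58 to -0.48 over the fits with an array left out, limma adjusted p up to 0.0183). Cebpd, the gene of an early adipogenic factor that cytokines also induce, was the member that rose, by 0.64 ± 0.17, a call lost without CI replicate 1 or TNF replicate 1 (0.46 to 0.78 over the fits with an array left out, limma adjusted p up to 0.136), and it was named after its value was seen. The number lower was 7 with the beta-actin covariate.

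Of 26 genes that carry out or control lipolysis, 9 were lower in TNF and 0 higher, with a median of -0.24. Hcar1, the lactate receptor that inhibits lipolysis, measured 8.61 and 8.61 in CI and 7.62, 7.43 and 7.52 in TNF, a difference of -1.09 ± 0.15 (limma adjusted p = 0.000389). G0s2, the inhibitor of the triglyceride lipase ATGL, measured 12.69 and 12.92 in CI and 11.85, 11.97 and 11.75 in TNF, a difference of -0.95 ± 0.12 (limma adjusted p = 0.000315). Both were lower in every TNF array than in any CI array. Mgll, the monoglyceride lipase gene, had the largest fall of the list and measured 10.86 and 10.97 in CI and 8.77, 9.02 and 8.88 in TNF, a difference of -2.03 ± 0.10 (limma adjusted p = 2.72e-07), and 2 of its 3 other probe sets were called lower. Abhd6, a hydrolase of monoglycerides, fell by 0.80. The triglyceride lipase gene Pnpla2, which encodes ATGL, measured 12.83 and 12.78 in CI and 12.89, 12.82 and 12.90 in TNF and overlapped between the models (0.07 ± 0.08, limma adjusted p = 0.599). Lipe, the gene of hormone-sensitive lipase, differed by -0.46 ± 0.09, which passed the test (limma adjusted p = 0.00292) but not the limit of 0.5.

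The lipid droplet and the caveolae, the surface pits that are dense in fat cells, changed in part. Of 24 genes 8 were lower and 2 higher, with a median of -0.02. Cidec, which fuses droplets into large ones, measured 13.87 and 13.86 in CI and 12.96, 13.12 and 12.94 in TNF, a difference of -0.85 ± 0.08 (limma adjusted p = 4.34e-05). Cav1, the main caveolar coat protein, measured 14.12 and 14.03 in CI and 13.27, 13.40 and 13.36 in TNF, a difference of -0.74 ± 0.07 (limma adjusted p = 5.47e-05). The caveolar genes Ehd2 and Cavin2 fell by 0.70 and 0.64, and Bscl2, which encodes seipin, a protein of droplet formation, by 0.75. Every TNF array was below every CI array for these genes. The droplet coat gene Plin4 differed by 0.46 and was not called, and Hsd17b11, a droplet-bound dehydrogenase, rose by 0.93 ± 0.09.

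Among the genes of triglyceride assembly called lower were Gpat3, which adds the first fatty acid, Agpat3, which adds the next, and Dgat2, which adds the last. They were named among the lower genes and do not speak for the other enzymes of these steps. Gpat3 measured 12.63 and 12.58 in CI and 11.32, 11.60 and 11.44 in TNF, a difference of -1.15 ± 0.10 (limma adjusted p = 2.19e-05). Agpat3 fell by 0.69 and Dgat2 by 0.64. Of 28 genes of glycerol supply and triglyceride assembly 10 were lower and 3 higher, and Gpam, Dgat1 and Lpl differed by -0.15, -0.18 and -0.09 and were not called. Of 22 genes of fatty acid synthesis and desaturation 7 were lower and 0 higher, among them Acaca, the gene of acetyl-CoA carboxylase (-0.58 ± 0.12), and Scd3, a desaturase (-0.76 ± 0.13). That number was 3 after quantile normalization, and the call of Acaca was lost without TNF replicate 1 (-0.69 to -0.45 over the fits with an array left out, limma adjusted p up to 0.0493). The sterol regulatory element, searched on both strands as 1 strict pattern, was found in 0 of the 18 genes of this list with a promoter window. It was found in only 32 of 14453 measured genes with a window (0.221%). With a motif so rare, 0 of 18 cannot tell this list from other genes. The calls of Abhd6, Hsd17b11, Agpat3, Acaca and Scd3 were lost with the median over the probe sets.

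**Figure D5:**
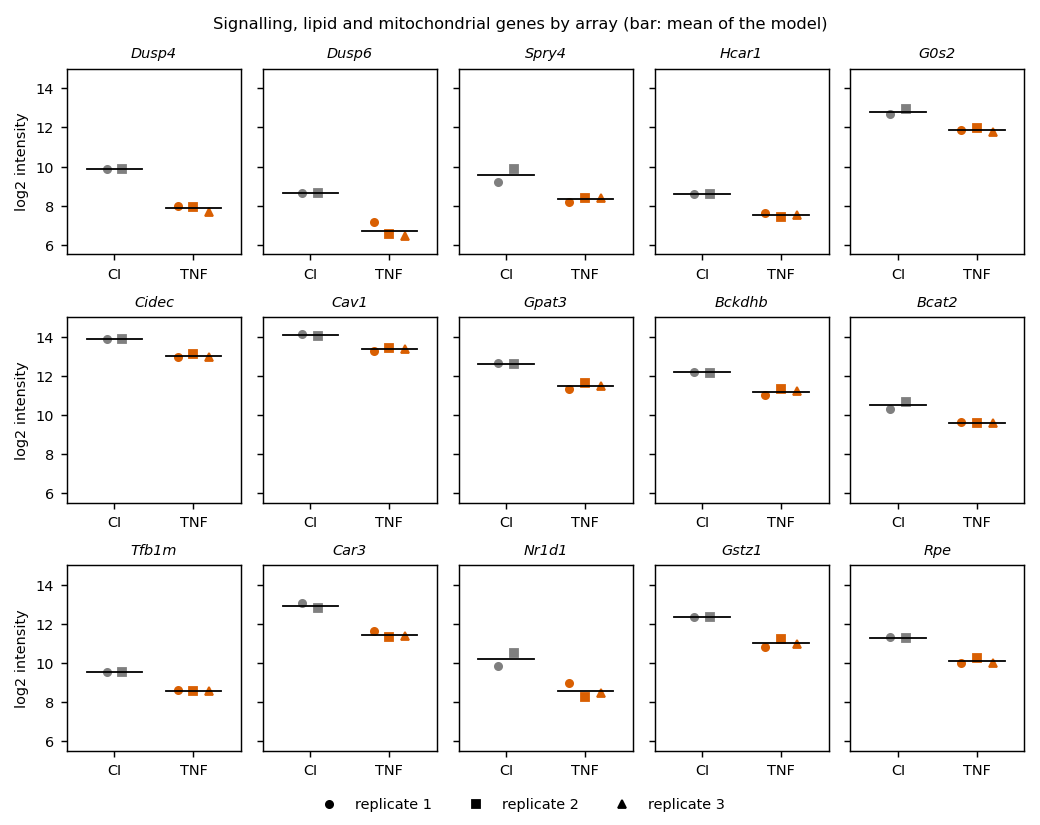
Log2 intensity (vertical axis) of 15 genes of ERK feedback, lipid, amino acid and mitochondrial metabolism, the clock and detoxification in each CI array (grey) and TNF array (orange), with the symbol giving the replicate and a bar at the mean of the model. All 15 were chosen from genes called lower in TNF, so their shared direction is a result of the choice. Genes of the same lists that were called higher are not shown. Differences run from -0.74 for Cav1 to -2.02 for Dusp4, and no TNF point reaches a CI point.

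Of 29 enzymes that break down the branched-chain amino acids leucine, isoleucine and valine, 15 were lower and 1 higher. Bcat2, the mitochondrial aminotransferase of the first step, measured 10.29 and 10.66 in CI and 9.62, 9.58 and 9.57 in TNF, a difference of -0.88 ± 0.10 (limma adjusted p = 0.000157). Bckdhb and Dbt encode parts of the dehydrogenase of the second, committed step. Bckdhb measured 12.20 and 12.14 in CI and 11.02, 11.29 and 11.21 in TNF, a difference of -1.0 ± 0.10 (limma adjusted p = 3.98e-05), and Dbt fell by 0.95 (limma adjusted p = 2.91e-05). Hibch, which acts later on valine, fell by 0.76. For each of them all TNF arrays lay below the CI arrays. The gene of the first dehydrogenase subunit, Bckdha, and the kinase gene Bckdk differed by -0.17 and 0.17 and were not called. Bcat1, the cytosolic aminotransferase, rose by 0.90 ± 0.14, although not with the median over its probe sets. After quantile normalization 8 members were lower.

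Of 22 citric acid cycle enzymes 6 were lower and 0 higher, with a median of -0.43. Ogdh, encoding the 2-oxoglutarate dehydrogenase, measured 10.93 and 10.94 in CI and 9.96, 10.13 and 10.17 in TNF, a difference of -0.85 ± 0.08 (limma adjusted p = 3.77e-05), and Fh1, encoding fumarase, fell by 0.71. Cs, the gene of citrate synthase, differed by -0.48 ± 0.08 and stayed under the limit of 0.5. Tfb1m, which modifies the mitochondrial ribosomal RNA, measured 9.53 and 9.53 in CI and 8.63, 8.54 and 8.55 in TNF, a difference of -0.96 ± 0.09 (limma adjusted p = 2.64e-05). The mitochondrial elongation factor gene Tufm fell by 0.73 and the coactivator gene Ppargc1a by 0.68, and the other regulators of mitochondrial biogenesis were not called (3 of 18 lower). Of 76 mitochondrial ribosomal proteins 16 were lower and 0 higher, with a median of -0.39, and Mrpl20 (-1.0 ± 0.14) and Mrps22 (-0.82 ± 0.13) led them. Many members sat near the limit of 0.5, and the number lower was 26 without CI replicate 1, 10 without CI replicate 2, 30 without TNF replicate 2, 10 after quantile normalization and 29 when arrays were centred. The calls of Ogdh, Tufm and Ppargc1a were lost with the median over the probe sets. The cytosolic ribosome, measured through 44 genes, had 1 gene lower (Rps25, -0.74 ± 0.12) and a median of 0.07.

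Of 38 subunits of the standard proteasome 7 were lower and 0 higher, with a median of -0.34. Psmb5, a catalytic subunit, measured 12.33 and 12.38 in CI and 11.56, 11.90 and 11.79 in TNF, a difference of -0.60 ± 0.10 (limma adjusted p = 0.0015), and Psmd1 fell by 0.64. The immunoproteasome subunit Psmb10, named for its large change within the antigen presentation list, rose, which does not speak for the other immunoproteasome subunits. The number of standard subunits lower was 4 without CI replicate 2, 3 without TNF replicate 1 and 4 after quantile normalization. TNF replicate 1 was the lowest TNF array in 34 of 38 proteasome genes and in 68 of 76 mitochondrial ribosome genes, the reverse of its place among interferon and NF-kB genes.

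Genes that handle oxidants are of interest because every sample had received the antioxidant. The share called was 13.8% for superoxide, peroxide and glutathione defence, 15% for oxidases, 18.2% for glutathione S-transferases and 25% for NADPH supply. Of all genes 8.22% were called, but of the 4549 genes of highest mean intensity 14.3% were. The defence list was bright, with mean levels of 10.91 and 10.98 in the CI arrays. Its share was thus no higher than that of bright genes at large. The part of brightness in the other shares was not tested. Of 29 genes of superoxide, peroxide and glutathione defence 3 were lower and 1 higher, with a median of -0.04. Nnt, the mitochondrial transhydrogenase that supplies NADPH, was the higher gene (0.63 ± 0.10, lost with the median over its probe sets), and Gclm, which helps to start glutathione synthesis, was among the lower (-0.53 ± 0.12), a call lost without CI replicate 2 or TNF replicate 2 (-0.67 to -0.39 over the fits with an array left out, limma adjusted p up to 0.108). Nox4, an oxidase that makes hydrogen peroxide, measured 5.37 and 5.22 in CI and 5.68, 5.78 and 5.61 in TNF, a difference of 0.39 ± 0.09 that did not reach the limit, and Xdh, xanthine dehydrogenase, rose by 0.51 ± 0.11, a call lost without CI replicate 1 or TNF replicate 1 or 3 (0.47 to 0.58 over the fits with an array left out, limma adjusted p up to 0.0469). Nos3, the endothelial nitric oxide synthase also found in fat cells, fell by 0.76. Among 22 glutathione S-transferases Gstz1, which acts in tyrosine breakdown, measured 12.34 and 12.33 in CI and 10.83, 11.23 and 10.98 in TNF, a difference of -1.32 ± 0.10 (limma adjusted p = 9.93e-06), and Gstt1 rose by 0.78 ± 0.10. On the side of NADPH supply Rpe, an epimerase of the pentose phosphate pathway, had a difference of -1.19 ± 0.10 (limma adjusted p = 2.12e-05), one of 4 of 16 genes lower.

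Metal handling genes rose in 6 of 27 cases and fell in 1. Steap2 and Steap1, metalloreductases of iron and copper, rose by 1.5 ± 0.16 and 0.88 ± 0.10 (limma adjusted p = 9.35e-05 and 0.000168). Slc25a37, the mitochondrial iron importer, rose by 0.66 ± 0.10, and Slc30a1, which exports zinc, fell by 0.93. Slc40a1, the iron exporter ferroportin, measured 8.33 and 8.36 in CI and 8.45, 9.11 and 9.12 in TNF. TNF replicate 1 was close to the CI arrays and the others higher, and the gene was not called (limma adjusted p = 0.0832).

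Of 30 cathepsins and lysosomal proteins, 10 were higher, 1 was lower and 19 were not called, with a median of 0.30, and 7 were higher when arrays were centred. Ctsa, a protective carboxypeptidase of the lysosome, measured 11.79 and 11.75 in CI and 12.60, 12.54 and 12.66 in TNF, a difference of 0.83 ± 0.07 (limma adjusted p = 2.17e-05). Hexa, a hexosaminidase, measured 12.40 and 12.28 in CI and 13.03, 13.05 and 13.13 in TNF, a difference of 0.73 ± 0.07 (limma adjusted p = 5.73e-05). The models did not overlap in either. Ctsk, a collagen-cutting cathepsin, rose by 0.72 ± 0.11 and Gaa, acid alpha-glucosidase, by 0.70 ± 0.10, while Ctsc fell by 0.62 from a level below the median gene, a fall not seen in the median over its probe sets. Tfeb, the transcription factor of lysosomal genes, differed by -0.13 and was not called.

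Clock genes differed in 7 of 20 cases, 6 lower and 1 higher. Nr1d1, the repressor REV-ERBalpha, measured 9.84 and 10.52 in CI and 8.97, 8.24 and 8.46 in TNF, a difference of -1.62 ± 0.23 (limma adjusted p = 0.000597). Rora, the activator that competes with it for the same sites, fell by 0.98. The cryptochromes went in opposite directions, with Cry1 up by 0.77 ± 0.12 and Cry2 down at -0.74 ± 0.09 (limma adjusted p = 0.00125 and 0.000151). Clock fell by 0.70, though not with the median over its probe sets, while its partner gene Arntl differed by -0.02 and Per2 by -0.17. The time of day of the harvest is not given in the labels, and its part in these values was not tested.

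Among the remaining lists, Casp4, the inflammatory caspase that senses lipopolysaccharide, rose by 0.96 ± 0.15 and Bid, which links death receptors to mitochondria, by 0.71 ± 0.12, 2 of 28 caspase and BCL2 family genes that rose, with 2 lower, or 4 lower without CI replicate 1. Pla2g2e, a secreted phospholipase A2, measured 8.91 and 9.04 in CI and 7.54, 7.46 and 7.41 in TNF, a difference of -1.5 ± 0.08 (limma adjusted p = 4.55e-07), the largest among 22 prostaglandin genes, of which 3 were lower. Of the 15 genes with the largest falls and separate arrays, 7 were in no list. Enpep, a peptidase that cuts angiotensin, measured 7.23 and 7.51 in CI and 5.13, 5.03 and 4.87 in TNF, a difference of -2.36 ± 0.12 (limma adjusted p = 3.88e-07) and the largest fall of these, at a level below the median gene. Poln, a DNA polymerase, differed by -2.14 ± 0.17, B3galt2, a galactosyltransferase, by -1.89 ± 0.11, Gm4951 by -1.88 ± 0.29, Tmigd1, an adhesion protein, by -1.84 ± 0.13, Angptl1, of the angiopoietin-like family, by -1.74 ± 0.19 and Pfkfb3, an enzyme that controls glycolysis, by -1.74 ± 0.14. The call of Angptl1 was lost with the median over its probe sets. The usual reference genes Actb and Gapdh differed by -0.05 ± 0.08 and -0.16 ± 0.08 and were not called.

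TNF replicate 1 was more than 1 from the mean of the other TNF arrays in 30 of 18194 genes, replicate 2 in 6 and replicate 3 in 0. Over all genes replicate 1 was the highest of the 3 TNF arrays in 34.6% and the lowest in 37.9%. In the NF-kB list it was the highest in 16 of 16 genes, among chemokines in 21 of 34 and among acute phase proteins in 17 of 26. TNF replicate 2 was the lowest TNF array in 15 of the 16 NF-kB genes and in 35 of the 39 antiviral genes. What set TNF replicate 1 apart was not tested.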

How the data were processed

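Labelled cRNA was hybridised to Affymetrix mouse arrays of 45101 probe sets. Each deposited value is the linear intensity of a probe set, processed by the authors. RMA in affyPLM is the normalization that the methods of the study name for these arrays, but the step from it to the deposited linear values is not given in the sources used here. The log2 of the deposited values was taken with no pseudocount. The number of arrays is what limits the precision. No value gives the signal over background.

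Samples were grouped by title. GEO's annotation of the platform gave 34958 probe sets 1 gene symbol (34754 with a RefSeq gene ID), 932 probe sets several and 9211 none. For each gene the probe set of 1 symbol with the highest mean over the 8 arrays was used. Of the genes, 9012 had several probe sets. At least 1 other probe set was called in the same direction for 143 of the 312 higher genes with more than 1 probe set and for 288 of 544 lower genes, and in the opposite direction for 2 and 1.

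All 8 arrays were fitted in 1 model of 3 group means with limma 3.58.1 in R 4.3.3, two-sided, with Benjamini-Hochberg adjustment over 18194 genes. On simulated data the TNF minus CI fit recovered 98% of the genes shifted by 0.75 in log2 and 100% of those shifted by 1.5, with 100 genes of each size. It also called 4 genes that were not shifted. The simulated noise was normal and independent between arrays and genes, with the spread of each gene taken from the fit. Deviations shared by many genes of an array, as in TNF replicate 1, were absent, so the simulation cannot show recovery in their presence.

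The comparison, the 40 gene lists (1024 of 1151 symbols measured) and the rule for named genes were chosen with earlier results of these data known. The named genes were, for each direction, the 15 most changed calls with separate arrays, at most 6 called genes of a list, fixed markers whatever their values, and list members over 0.5 that failed the test. Lists were counted and not tested. Promoter windows came from RefSeq (GRCm38.p6). Alternatives were other scalings, filters, probe set rules, thresholds and fits, a covariate for RNA quality, the replicate number as a block, and leaving out each array. Figures were drawn with Python 3.11.15.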

Additional observations from a re-analysis of the deposited data

How the results depend on the processing

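The number of genes called moved by more than 1.5 times under other thresholds and other features. With no limit on the difference 4181 genes were called, 1768 higher and 2413 lower, and with a log2 difference over 1 there were 258, of which 127 were higher and 131 lower. With every probe set as a feature 2992 probe sets were called, 1085 higher and 1907 lower. Leaving out 1 array in turn gave 1237 to 1605 called genes, 484 to 613 higher and 703 to 1054 lower, and 946 of the 1496 genes kept their call in each of these fits. The other alternatives gave 1297 to 1623 genes. Of the 1496 genes, 1222 were called in the same direction after quantile normalization and 1069 with the median over the probe sets of a gene. Under that last setting the difference of Adamts9 became 0.0446, the difference of Dlst 0.12 and the difference of Ctsc 0.11, all with the sign turned and none called. The cause was not tested. Deviations of the CI and TNF arrays from their model means correlated at 0.05 for replicate 1 and -0.06 for replicate 2. With 2 CI arrays the deviations of each mirror those of the other, so these values cannot decide whether the replicate number pairs the arrays. Between TNF and Dex the correlations were 0.33, -0.09 and 0.21 for replicates 1, 2 and 3, against -0.38 to 0.28 for arrays of unlike number. Between CI and Dex they were 0.02 and -0.02 for replicates 1 and 2. With the replicate block 1534 genes were called, 516 higher and 1018 lower, and 1403 of them were among the 1496. Of the named genes 3 lost and 1 gained a call under the block. The 2 CI arrays, the absence of untreated cells and of arrays without the antioxidant, and the lack of a background measure for dim genes limit what the values show.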
